A study of Mus musculus with 6 samples.

Results

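The 10 genes described here encode inhibitory checkpoint molecules of T cells: Ctla4, Pdcd1, Lag3, Havcr2, Tigit, Cd96, Btla, Cd200r1, Cd200 and Cd5. They were chosen by name, and all 10 were found among the 15319 genes of the deposited table, each with at least 366 counts in every library. RNA-Seq was made from Tregs infiltrating lung tumors 21 days after LLC cells, a mouse lung carcinoma line, had been injected into the tail vein of mice aged 8 to 10 weeks. The WT group carried Foxp3 Yfp-Cre alone, and the cKO group carried it together with Xrcc6 flox/flox, so that Cre, made where Foxp3 is active, removes Ku70 in Tregs and both groups share the Cre allele. Each group had 3 libraries. The gate used for the tumor Tregs is not given in the sources used here, while Tregs in other experiments of the study were sorted as CD4+CD25+YFP+ cells, and whether a library came from 1 mouse or from pooled mice is not stated. The p-values therefore measure the spread between these libraries.

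Checkpoint receptors are surface proteins that restrain a T cell once they bind ligands on a neighboring cell. Many recruit phosphatases that oppose signals of the T cell receptor or of CD28. Tregs carry several of them at high levels, and CTLA-4 is also a tool of suppression, since it takes CD80 and CD86 away from antigen-presenting cells. Of the 10 genes, Cd200 encodes a ligand, whose receptor is encoded by Cd200r1, and the other genes encode receptors.

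The WT libraries held 19032620 to 21707706 counts and the cKO libraries 20762042 to 23159815. Values are given as CPM, counts relative to a library total scaled by edgeR's TMM method. WT replicate 2 stood apart, with 11513 genes detected against 14442 to 14737 in the other libraries, and results are given with and without it. Values of single libraries are listed in the order of replicates 1, 2 and 3. Xrcc6, the targeted gene, had 20.9, 63.1 and 23.8 CPM in the WT libraries and 5.24, 3.51 and 4.18 CPM in the cKO libraries, and its locus overlaps Desi1 on the other strand. Foxp3, which defines Tregs, was present in every library, with 150 to 241 CPM in WT and 189 to 282 CPM in cKO.

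The loci and the sequences before the start sites of the genes are shown first, because 5 of the 10 genes are neighbors. In GRCm38, Tigit, Cd200r1, Btla, Cd200 and Cd96 lie on chromosome 16 within 2.47 Mb, from 43648867 to 46120251. Ctla4 (60887000 to 60915832) and Pdcd1 (94038305 to 94052553) lie on chromosome 1, Lag3 on chromosome 6 (124904361 to 124911705), Havcr2 on chromosome 11 (46454935 to 46481255) and Cd5 on chromosome 19 (10717116 to 10739002). Only Ctla4 overlaps another annotated gene, the pseudogene Rpl18-ps1, over 525 bases of the same strand. Gene spans with their introns were compared, and whether the pseudogene adds to the counts of Ctla4 was not tested. Of the other genes annotated between Tigit and Cd96, 13 had a mean of at least 10 CPM. Their log2 fold changes were below 0 in 9 and above 0 in 4, with a median of -0.31, which was -0.06 without WT replicate 2. Of all genes at that level, 49.1% were below 0.

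RefSeq promoters (GRCm38.p6) were matched for 8 of the 10 genes. The start sites are those of RefSeq and can differ from the gene spans above, which are from GENCODE vM21. The window of Ctla4 lies inside its gene span. The 250 bases before the start site are printed for Ctla4, whose groups did not overlap, for Havcr2 and Tigit, which ordered the libraries alike, and for Btla, which put WT replicate 2 highest where those genes put it lowest. The searched letters, on both strands, were the forkhead motif GTAAACA, the RUNX motif TGTGGT, the AP-1 motif TGANTCA, the NFAT motif GGAAAA and, for the box that places the start site in some promoters, TATAAA. Capitals mark each match.
Ctla4, plus strand, chr1:60908775-60909024: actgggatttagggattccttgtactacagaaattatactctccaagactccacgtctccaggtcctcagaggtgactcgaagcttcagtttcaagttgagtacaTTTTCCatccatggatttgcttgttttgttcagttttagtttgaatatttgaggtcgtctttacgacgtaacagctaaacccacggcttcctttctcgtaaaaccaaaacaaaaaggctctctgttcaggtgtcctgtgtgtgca
Havcr2, plus strand, chr11:46454681-46454930: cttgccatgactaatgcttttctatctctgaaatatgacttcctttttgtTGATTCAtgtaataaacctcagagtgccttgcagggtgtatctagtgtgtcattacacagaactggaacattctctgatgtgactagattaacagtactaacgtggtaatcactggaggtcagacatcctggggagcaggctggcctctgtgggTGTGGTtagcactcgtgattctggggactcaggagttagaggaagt
Tigit, minus strand, chr16:43664185-43664434: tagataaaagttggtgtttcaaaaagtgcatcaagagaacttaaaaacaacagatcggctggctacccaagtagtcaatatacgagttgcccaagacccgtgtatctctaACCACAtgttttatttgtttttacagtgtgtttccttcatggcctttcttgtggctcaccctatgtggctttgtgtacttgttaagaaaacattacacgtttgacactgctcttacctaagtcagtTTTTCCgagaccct
Btla, plus strand, chr16:45224087-45224336: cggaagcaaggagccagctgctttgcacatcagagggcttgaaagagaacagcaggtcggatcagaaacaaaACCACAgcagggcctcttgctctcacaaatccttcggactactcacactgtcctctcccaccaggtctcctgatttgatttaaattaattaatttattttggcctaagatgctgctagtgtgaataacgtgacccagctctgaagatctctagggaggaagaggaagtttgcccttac
The RUNX letters were in the windows of Havcr2, Tigit, Cd96 and Btla, 4 of the 8, and in 14% of 32817 windows of the same length. The match lay 41 bases before the start of Havcr2 and 135 bases before that of Tigit. The NFAT letters were in the windows of Ctla4 and Tigit (20.4% of all windows), the AP-1 letters in that of Havcr2 (6.75%) and the letters TATAAA in that of Cd96 (12.4%). The forkhead letters were in 0 of the 8, against 3.16% of all windows. These matches are descriptions of letters and say nothing of binding.

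Tigit and Ctla4 were the most abundant of the 10 per length of transcript. Per kilobase of the main transcript, their means over the 6 libraries were 1036 ± 294 and 615 ± 91.7 CPM (SD, n = 6). Cd5, a brake on T cell receptor signals that thymocytes and T cells share, followed at 310 ± 17.1 CPM per kilobase, and Pdcd1, the gene of PD-1, at 271 ± 135 CPM per kilobase. Tigit was above Ctla4 in 5 of 6 libraries, the exception being WT replicate 2, and Cd5 was above Pdcd1 in 5 of 6, the exception being WT replicate 1. The level then fell to 83.2 ± 5.12 for Cd96, 67.2 ± 22.9 for Lag3, 40.3 ± 22.8 for Cd200r1, 32.6 ± 11.4 for Btla, 22.4 ± 6.48 for Cd200 and 17.0 ± 9.92 CPM per kilobase for Havcr2, the gene of TIM-3. Along this order the ranges of neighbors were separate only between Ctla4 and Cd5 and between Pdcd1 and Cd96. When the length of all annotated exons was used instead, Pdcd1 came before Cd5, and Btla took the last place in the order.

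**Figure D1:**
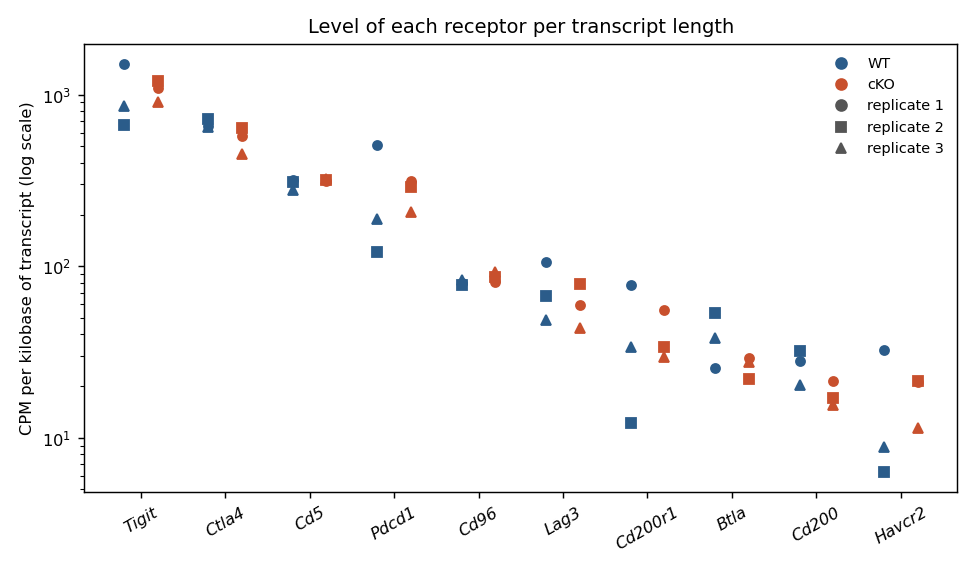
CPM per kilobase of main transcript (log scale) of each gene, ordered by its mean, with 1 point per library, blue for WT and orange for cKO, and the shape giving the replicate. Tigit spans 665 to 1501 and Havcr2 6.32 to 32.6, while Cd5 and Cd96 are confined to 277 to 322 and 77.9 to 91.9.

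Ctla4 was the only one of the 10 genes whose cKO libraries were all below its WT libraries, but the difference was within the error of the test. It had 1263, 1395 and 1247 CPM in the WT libraries and 1116, 1236 and 875 CPM in the cKO libraries. The WT libraries were close together, and the gap between the lowest WT and the highest cKO library was small beside the distance of cKO replicate 3 from the rest. The means were 1302 ± 81.3 and 1076 ± 184 CPM (SD, n = 3 each). The cKO over WT log2 fold change was -0.27 (standard error 0.21, 95% interval -0.76 to 0.21; edgeR quasi-likelihood test, unadjusted p = 0.225). The exact two-sided permutation test of the CPM gave p = 0.1, the smallest that 3 against 3 allow. Without WT replicate 2 the groups still did not overlap and the log2 fold change was -0.22. The groups were separate in this direction for 3.23% of all genes, and for 7.53% without WT replicate 2. In RNA from a cell population, fewer cells with a transcript and less of it per cell cannot be told apart.

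Pdcd1 encodes PD-1, which recruits SHP-2 and weakens CD28 and T cell receptor signals. It had 979, 234 and 366 CPM in the WT libraries and 602, 562 and 398 CPM in the cKO libraries. The cKO libraries all lay between WT replicate 1 and WT replicate 3, so the groups overlapped and the WT group held both extremes. Its log2 fold change of -0.02 had a wide error (standard error 0.50, 95% interval -1.18 to 1.14). It moved to -0.37 without WT replicate 2 and to 0.79 without WT replicate 1 (unadjusted p = 0.0288 and adjusted p = 0.677 from edgeR). The sign thus differed between these fits.

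Btla encodes a receptor for HVEM, the product of Tnfrsf14. It had 40.7, 84.8 and 61.2 CPM in the WT libraries and 46.9, 35.1 and 44.2 CPM in the cKO libraries. WT replicate 1 lay among the cKO libraries and the other WT libraries lay above them all. Btla differed by a log2 fold change of -0.57 (standard error 0.27, 95% interval -1.20 to 0.07; edgeR, unadjusted p = 0.0743). It was -0.28 without WT replicate 2 (unadjusted p = 0.188 from edgeR). Without WT replicate 1 it was -0.80 (unadjusted p = 0.00839 and adjusted p = 0.677 from edgeR). Tnfrsf14 itself had 66.6 ± 15.7 CPM in WT and 54.7 ± 2.90 CPM in cKO Tregs (SD, n = 3 each).

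Lag3 encodes a receptor for MHC class II that is related to CD4. It had 213, 133 and 97.6 CPM in the WT libraries and 119, 157 and 87.2 CPM in the cKO libraries. The highest library was WT and the lowest was cKO, with the other libraries mixed. For Lag3 the log2 fold change was -0.29 (standard error 0.32, 95% interval -1.05 to 0.47; edgeR, unadjusted p = 0.4), -0.36 without WT replicate 2 and 0.07 without WT replicate 1.

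Cd5 and Cd96 were the steadiest of the 10. Cd5 had 661, 636 and 572 CPM in the WT libraries and 651, 659 and 666 CPM in the cKO libraries. Its cKO libraries lay so close that their standard deviation was 7.61 CPM. Its log2 fold change was 0.08 (standard error 0.16, 95% interval -0.29 to 0.45). Cd96, which encodes a receptor for CD155, the product of Pvr, had 174, 170 and 181 CPM in the WT libraries and 176, 188 and 201 CPM in the cKO libraries. For both genes WT replicate 2 lay close to the other WT libraries. The log2 fold change of Cd96 was 0.11 (standard error 0.13, 95% interval -0.20 to 0.41), and the groups overlapped for both genes.

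Tigit encodes another receptor for CD155, and it competes with the stimulatory receptor CD226. It had 1380, 612 and 785 CPM in the WT libraries and 1001, 1101 and 832 CPM in the cKO libraries. As for Pdcd1, every cKO library fell between WT replicate 1 and WT replicate 3. For Tigit the log2 fold change was 0.08 (standard error 0.32, 95% interval -0.67 to 0.83), -0.15 without WT replicate 2 and 0.49 without WT replicate 1.

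Havcr2 encodes TIM-3, a receptor of galectin-9 found on exhausted T cells and on effector Tregs, and also on macrophages and dendritic cells. It had 88.6, 17.2 and 23.9 CPM in the WT libraries and 57.6, 58.4 and 31.1 CPM in the cKO libraries. WT replicate 1 was the highest library and the other WT libraries were the lowest. For Havcr2 the log2 fold change was 0.18 (standard error 0.60, 95% interval -1.22 to 1.58) and -0.20 without WT replicate 2. Without WT replicate 1 it was 1.25 (unadjusted p = 0.00933 and adjusted p = 0.677 from edgeR). The 15 macrophage and dendritic cell markers, all measured, summed to 202, 713 and 747 CPM in the WT libraries and to 247, 585 and 1115 CPM in the cKO libraries. Their sum was lowest in WT replicate 1, where Havcr2 was highest. Lyz2 (129 to 500 CPM in WT and 170 to 625 CPM in cKO) and C1qb (16.1 to 47.8 and 16.2 to 111 CPM) led that list.

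Cd200 had the lowest p of the 10 genes in edgeR, while its exact two-sided permutation p was 0.2. It had 65.9, 75.6 and 47.9 CPM in the WT libraries and 50.1, 40.2 and 36.2 CPM in the cKO libraries. WT replicate 3 lay just below cKO replicate 1, so the groups overlapped by these libraries alone. On average it had 63.1 ± 14.0 and 42.1 ± 7.14 CPM (SD, n = 3 each). Its log2 fold change was -0.58 (standard error 0.22, 95% interval -1.09 to -0.08; edgeR, unadjusted p = 0.0288). After adjustment over all genes the p was 0.984 in edgeR, so Cd200 did not pass the test. Without WT replicate 2 the log2 fold change was -0.44 (unadjusted p = 0.0416 from edgeR). The unadjusted p was 0.0667 without WT replicate 1, 0.0839 without cKO replicate 2 and 0.104 without cKO replicate 3.

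Cd200r1, the receptor of CD200, had the highest ratio of the highest to the lowest library, 6.35. It had 146, 23.1 and 63.5 CPM in the WT libraries and 104, 63.7 and 56.1 CPM in the cKO libraries. WT replicate 2 was far below the rest and WT replicate 1 above them. For Cd200r1 the log2 fold change was -0.06 (standard error 0.59, 95% interval -1.43 to 1.32), -0.50 without WT replicate 2 and 0.79 without WT replicate 1.

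**Figure D2:**
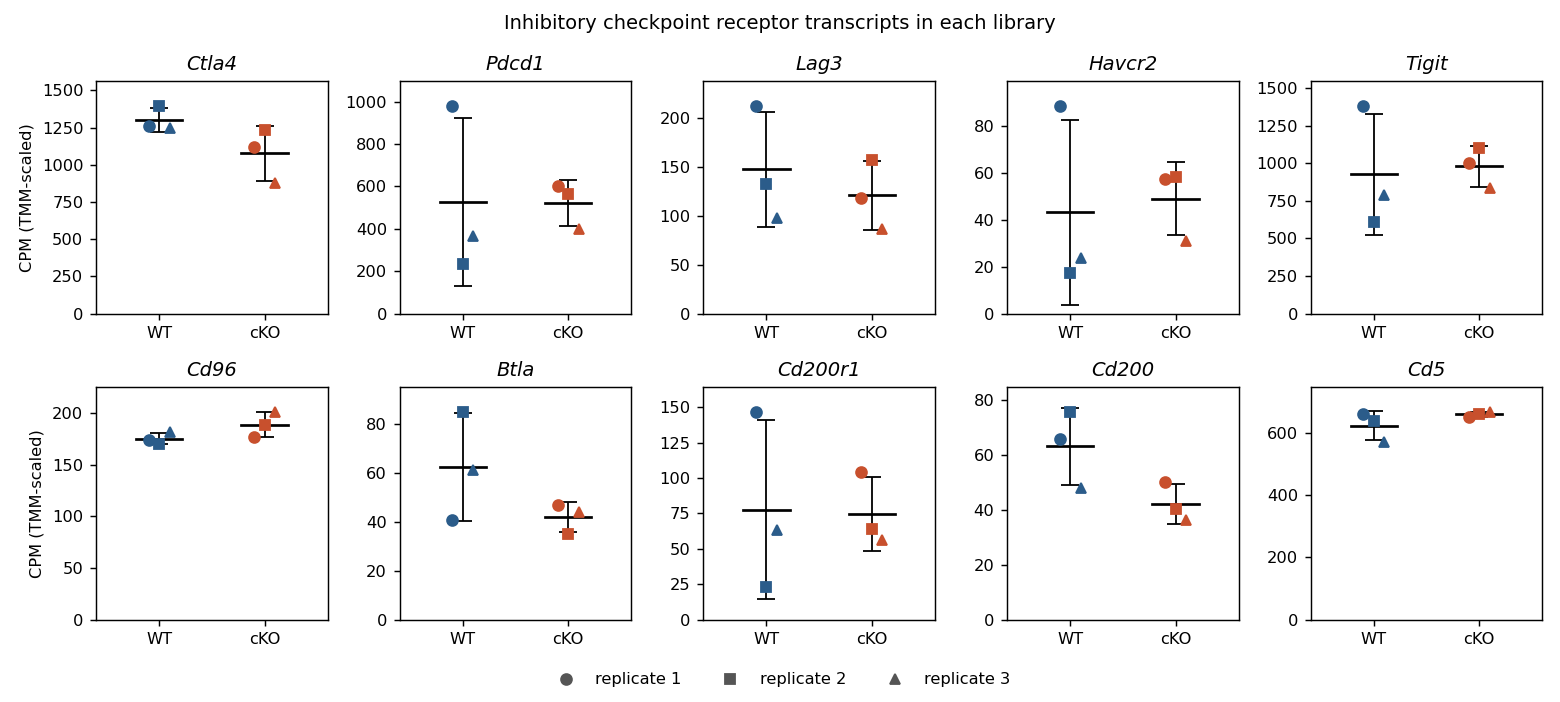
CPM of each gene in the WT (blue) and cKO (orange) libraries, the shape giving the replicate, with the mean (bar) and SD (whisker, n = 3). Only for Ctla4 are all cKO points below all WT points, and for Pdcd1, Havcr2, Tigit and Cd200r1 the WT points span the cKO points.

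None of the 10 genes passed an adjusted p of 0.05 in edgeR's quasi-likelihood test. Their adjusted p ranged from 0.984 to 0.996, and 0 of the 15315 genes tested passed (0% in either direction). Xrcc6, the targeted gene, did not pass either, with a log2 fold change of -3.06 (edgeR, unadjusted p = 0.000306, adjusted p = 0.984). In DESeq2 its adjusted p was 1.2e-05. A high adjusted p in this edgeR fit therefore does not show that a gene was unchanged. At an unadjusted p under 0.05, 1 of the 10, Cd200, was lower in the cKO group and 0 were higher, against 0.868% of all genes lower and 0.94% higher. Apart from Cd200 and Btla, the unadjusted p of the genes lay between 0.225 and 0.974 in edgeR. The log2 fold change was below 0 in 6 of the 10, against 45.5% of all genes, with a median of -0.04 over the 10 and 0.04 over all genes. Without WT replicate 2 it was below 0 in 8 of the 10, against 51.4% of all genes, with medians of -0.25 and -0.01, and Cd200 was again the only one of the 10 lower at an unadjusted p under 0.05, against 1.5% of all genes. Ctla4, Btla and Cd200 had a log2 fold change below 0 in all 15 alternative analyses, from -0.45 to -0.15 for Ctla4, from -0.80 to -0.28 for Btla and from -0.74 to -0.44 for Cd200. The exact two-sided permutation test gave the other 9 genes a p of 0.2 to 1.

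**Figure D3:**
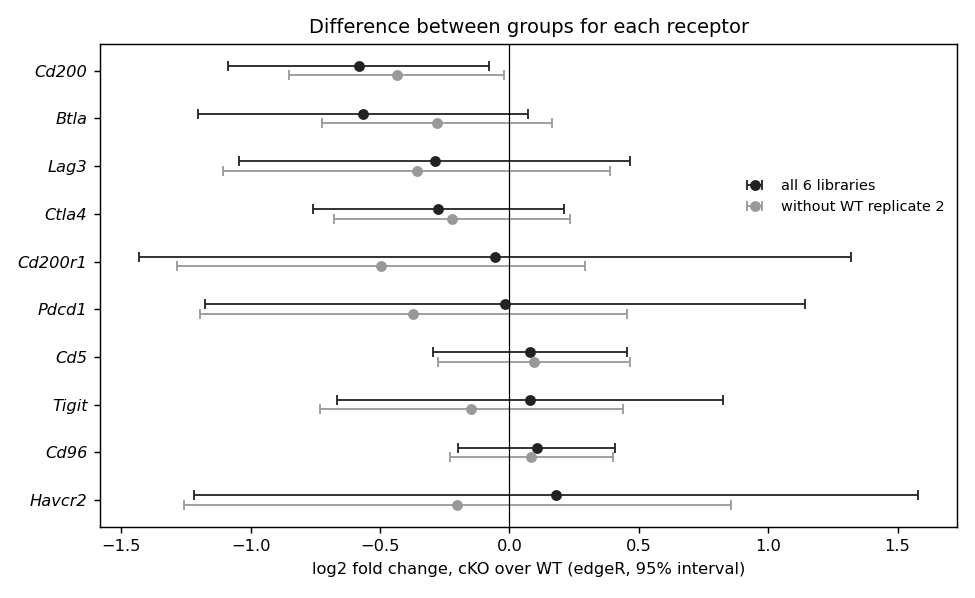
Log2 fold change of cKO over WT with its 95% interval from edgeR for each gene, over all 6 libraries (black) and without WT replicate 2 (gray). The Cd200 intervals lie below 0 in both fits, and all others include 0.

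The larger differences lay among the WT libraries, though not for Ctla4 and Cd96. WT replicate 1 was the highest of the 6 libraries for Pdcd1, Lag3, Havcr2, Tigit and Cd200r1, 5 of the 10 genes, against 18.2% of all genes. WT replicate 2 was the lowest for Pdcd1, Havcr2, Tigit, Cd96 and Cd200r1 (39.6% of the genes with a mean of at least 10 CPM). It was the highest for Ctla4, Btla and Cd200 (37.6% of the genes at that level and 29.0% of all genes). Havcr2 and Tigit put the 6 libraries in one and the same order, from WT replicate 1 through cKO replicates 2, 1 and 3 and WT replicate 3 down to WT replicate 2, and Pdcd1 differed from it only in the order of cKO replicates 1 and 2. The standard deviation of the log2 level across the WT libraries was 1.32 for Cd200r1, 1.23 for Havcr2 and 1.05 for Pdcd1, and 0.05 for Cd96, 0.09 for Ctla4 and 0.11 for Cd5. Its median over the 8447 genes with a mean of at least 10 CPM was 0.34. Across the cKO libraries it was 0.51 for Havcr2, 0.47 for Cd200r1 and 0.32 for Pdcd1, with a median of 0.14 over the 8447 genes. For Ctla4 and Cd96 it was 0.26 and 0.09 across the cKO libraries, above their values across the WT libraries.

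**Figure D4:**
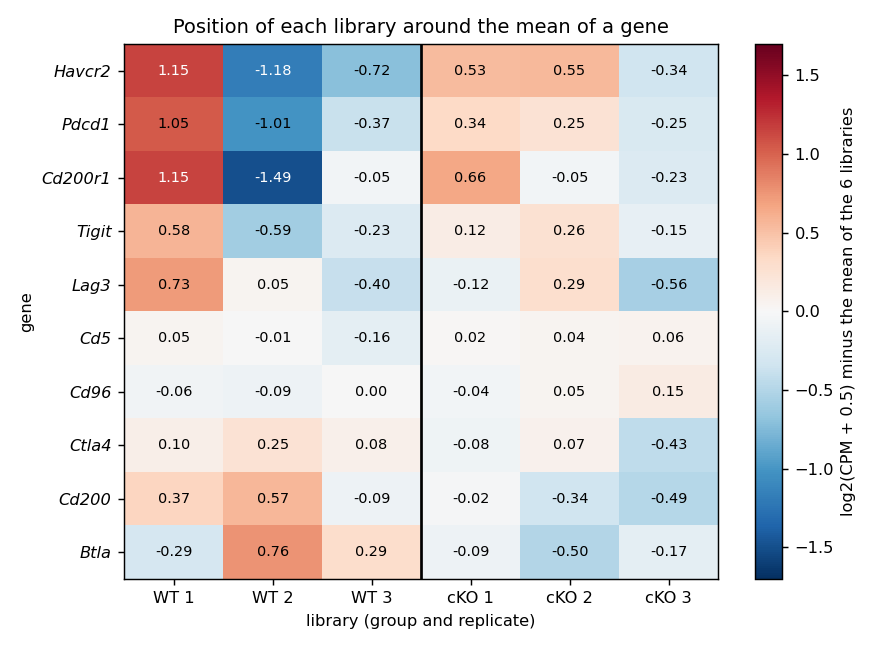
Log2(CPM + 0.5) of each gene in each library minus the mean of that gene over the 6 libraries, as a color and a printed value. WT 1 and WT 2 have opposite signs for Havcr2, Pdcd1, Cd200r1, Tigit and Btla, with Btla reversed, and by little for Cd5 (0.05 and -0.01). Cd5 and Cd96 range only from -0.16 to 0.15.

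The likeness of profiles was measured as the root mean square distance between centered log2(CPM + 0.5) values over the 6 libraries. Among the 45 pairs of the 10 genes, Cd96 and Cd5 were nearest (0.10), both nearly flat. Among the genes that varied, Pdcd1 was near Havcr2 (0.22), Tigit (0.28) and Cd200r1 (0.30), and Ctla4 was near Cd200 (0.25). The farthest pair was Havcr2 and Btla (1.18), with opposite signs in WT replicates 1, 2 and 3. Over the other 8446 genes with a mean of at least 10 CPM, the nearest to Tigit were Ostf1 (0.05), Crem (0.07) and Serpinb6b (0.08), and the nearest to Ctla4 were Pdp2 (0.06), Stk39 (0.07) and Icos (0.09). Icos encodes a stimulatory relative of CTLA-4 and had 943, 1150 and 880 CPM in the WT libraries and 870, 1051 and 697 CPM in the cKO libraries. The genes nearest to Cd5 were Polr2m, Kpna3 and Rrp1, at distances of 0.02 to 0.03.

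Nkg7 and the sums of the Treg markers, of the T cell markers and of the CD8 T and NK cell markers also were highest in WT replicate 1 and lowest in WT replicate 2. Nkg7, a granule protein gene of CD8 T and NK cells that Tregs can also express, had 726, 80.7 and 268 CPM in the WT libraries and 281, 453 and 263 CPM in the cKO libraries. The 10 of 11 measured CD8 T and NK cell markers summed to 90.0 to 757 CPM in the WT group and 295 to 485 CPM in the cKO group. After Nkg7, Cd8b1 was the most abundant of them, with 18.4, 5.22 and 12.5 CPM in the WT libraries and 17.3, 17.6 and 17.9 CPM in the cKO libraries (log2 fold change 0.54, standard error 0.44), while Cd8a had 0 to 2.06 CPM in WT and 0.673 to 2.60 CPM in cKO. The 9 Treg markers summed to 8730, 5364 and 6034 CPM in the WT libraries and to 6573, 6463 and 5870 CPM in the cKO libraries. Tnfrsf4, which encodes OX40, led that list at 3072 CPM in WT replicate 1 and 1664 to 1920 CPM in the other libraries, followed by Il2rb with 1004 to 1528 CPM. The 9 of 10 measured B and plasma cell markers summed to 16.4 to 65.1 CPM in the WT group and 13.0 to 56.8 CPM in the cKO group, led by Cd79b (0.188 to 17.0 CPM in WT and at most 25.5 CPM in cKO) and Jchain (0.287 to 41.7 CPM in WT and 0.510 to 3.87 CPM in cKO). The part of these transcripts in the order of the libraries for Pdcd1, Havcr2, Tigit and Cd200r1 was not tested.

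A ratio of counts within a library does not depend on scaling between libraries, and 8 ratios of a receptor to its counterpart were compared by exact two-sided permutation tests. The ratio of Ctla4 to Cd28, which compete for the same ligands, was 2.3, 1.29 and 1.54 in the WT libraries and 1.78, 1.53 and 1.20 in the cKO libraries. These values overlapped, and their mean log2 ratio differed by -0.16 (exact permutation p = 0.6). The ratio of Lag3 to Cd4 was 0.237, 0.270 and 0.152 in the WT libraries and 0.158, 0.197 and 0.105 in the cKO libraries, a log2 difference of -0.53 (exact permutation p = 0.3). The ratio of Cd200 to Cd200r1 was 3.28 in WT replicate 2 and 0.450 to 0.754 in the other libraries. Its log2 difference of -0.84 (exact permutation p = 0.5) was -0.01 without that library.

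The ratio of Tigit to Cd226, its stimulatory competitor, was 17.1, 18.5 and 10.2 in the WT libraries and 13.3, 14.3 and 13.4 in the cKO libraries. The cKO values lay inside the range of the WT values, and the log2 difference was -0.11. It was -0.17 for Cd96 to Cd226 and 0.05 for Tigit to Cd96. Cd5 to Cd6, its relative in the scavenger receptor family, differed by -0.14 and Btla to Tnfrsf14 by -0.25. All 8 ratios overlapped between the groups, and the adjusted p over the 8 exact permutation tests ranged from 0.8 to 1.

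Around the 10 genes, no listed partner passed an unadjusted p of 0.05 in edgeR with all 6 libraries, against 0.94% of all genes higher and 0.868% lower. Without WT replicate 2, 461 of the 15302 genes tested passed it. Among the partners 4 did so then: 1 of 15 ligands, 2 of 15 other inhibitory receptors and 1 of 18 signal mediators, with none in the other partner lists. Named after their values were seen, these were the PD-1 ligand gene Pdcd1lg2 (log2 fold change -0.48) and Ptpn11, the gene of SHP-2 (-0.30), lower in cKO, and the receptor genes Pilra (1.14) and Siglecg (2.06), higher in cKO, with unadjusted p-values of 0.0432 to 0.0486 from edgeR. Pilra and Siglecg had 13.0 and 8.37 CPM in WT replicate 2 and at most 3.43 and 1.87 CPM in any other library. Of 16 ligands, 15 were measured, 10 with a log2 fold change above 0, against 54.5% of all genes, and 5 below. Their median log2 fold change was 0.28 and fell to 0.03 without WT replicate 2. Lgals9, which encodes galectin-9, had 185 ± 8.57 CPM in WT and 202 ± 29.1 CPM in cKO Tregs (SD, n = 3 each). Hmgb1, a nuclear protein that binds TIM-3 when released, was at 355 ± 44.5 and 378 ± 61.3 CPM (SD, n = 3 each).

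Among the 7 stimulatory counterparts 5 were above 0 and 2 below, with a median log2 fold change of 0.17, and without WT replicate 2 they were 4 and 3 with a median of 0.03. The most abundant were Icos, whose log2 fold change was -0.18 (standard error 0.22; -0.06 without WT replicate 2), and Cd28, with 549, 1085 and 810 CPM in the WT libraries and 626, 807 and 731 CPM in the cKO libraries. Cd28 was highest in WT replicate 2 and lowest in WT replicate 1, and its groups overlapped. Of 16 other inhibitory receptors 15 were measured, 9 above 0 and 6 below, with a median log2 fold change of 0.16 and 0.50 without WT replicate 2. Lilrb4a, which encodes a receptor with inhibitory motifs, was at 376 ± 123 and 329 ± 83.5 CPM, and Vsir, the gene of VISTA, at 277 ± 24.5 and 309 ± 42.7 CPM (SD, n = 3 each).

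The 18 mediators of inhibitory signals, such as phosphatases, adaptors and kinases, had 10 above 0 and 8 below, with a median log2 fold change of 0.0035. Lck, the kinase that starts T cell receptor signals, had 899 ± 101 CPM in WT and 828 ± 32.4 CPM in cKO Tregs, and Fyn, its relative, had 414 ± 24.9 and 415 ± 17.4 CPM (SD, n = 3 each). The 7 genes of CTLA-4 trafficking had 3 above 0 and 4 below. Ap2m1, a subunit of the adaptor that takes CTLA-4 in from the surface, had a log2 fold change of -0.02 (95% interval -0.37 to 0.33). Rab8a, a small GTPase of transport to the surface, had one of 0.27 (95% interval -0.12 to 0.66).

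LAG-3 and TIM-3 are shed from the surface by the proteases of Adam10 and Adam17. Adam10 was at 80.3 ± 20.5 and 93.3 ± 1.99 CPM and Adam17 at 58.8 ± 13.9 and 49.6 ± 3.20 CPM in the WT and cKO groups (SD, n = 3 each). Of 18 transcription factors studied as regulators of such receptors, 4 were above 0 and 14 below, with a median log2 fold change of -0.12 and of -0.13 without WT replicate 2. Nr4a1, an early gene of T cell receptor signals, had 865, 2272 and 1407 CPM in the WT libraries and 1157, 993 and 1471 CPM in the cKO libraries. It was highest in WT replicate 2 and lowest in WT replicate 1, as Btla was among the WT libraries. Ikzf2, the gene of Helios, was at 570 ± 48.2 and 483 ± 78.0 CPM (SD, n = 3 each).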

How the data were processed

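RNA of Tregs from 3 WT and 3 cKO libraries was extracted with TRIzol, and libraries were made with a SMARTER mRNA kit and sequenced in pairs. The authors aligned clean reads to GRCm38 and deposited expected counts (each an estimated count per gene symbol), not normalized. The submitters' processing notes list Bowtie2 (version 2.3.4.3) and RSEM (version 1.3.1). Annotation and use of strand are not given in the sources used here. Of the values, 21.6% were not whole, and all were rounded.

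The 15315 of 15319 genes with at least 1 count were tested with edgeR (version 4.0.16, R 4.3.3; quasi-likelihood test, TMM scaling, Benjamini-Hochberg adjustment). Permutation tests used scipy (version 1.17.1). A count of 3 was worth 0.133 to 0.156 CPM, which covers counting error only. Replicates differed beyond sampling noise. The fit was tested on simulated data. Of 200 genes given a log2 fold change of 2 in either direction, 141 were recovered at an adjusted p under 0.05. It also called 10 unchanged genes. Positions and transcript lengths came from GENCODE vM21, promoters from RefSeq (GRCm38.p6), without the 50 bases after the start.

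The 10 genes and all lists were chosen with earlier results of these data known. Genes were named by a rule: the 10 genes, Xrcc6, the genes of the ratios, the 2 most abundant genes of each list, every listed partner gene with an unadjusted p under 0.05, and the 3 genes nearest in profile to each of the 3 genes highest per kilobase. Foxp3, Cd8a, Xcr1, the marker genes past an unadjusted p of 0.05 and the partner genes past it without WT replicate 2 were added after their values were seen. The 2 most abundant mast cell genes had under 0.5 CPM in every library and are not described. Alternatives were median-of-ratios scaling, library size only, filterByExpr (minimum count 10), DESeq2 (version 1.42.0), limma's voomWithQualityWeights (version 3.58.1), robust dispersions, a block for the replicate number, fits leaving out 1 library each, DESeq2 without WT replicate 2, and scaling to Cd3d, Cd3e, Cd3g and Cd4. Lists of endothelial and stromal, neutrophil, mast cell, lung epithelial and T cell markers were also summed, and their values are given with the other observations.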

Additional observations from a re-analysis of the deposited data

How the results depend on the processing

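With 3 libraries a group, the exact permutation tests could not go below 0.1, and the 95% intervals of Pdcd1, Havcr2 and Cd200r1 span more than 1 log2 unit on both sides of 0. Ctla4, Btla and Cd200 kept a log2 fold change below 0 in all 15 alternatives. Over the fits leaving out 1 library each, the log2 fold change ranged from -0.37 to 0.79 for Pdcd1, from -0.52 to 0.068 for Lag3, from -0.20 to 1.25 for Havcr2, from -0.15 to 0.49 for Tigit and from -0.50 to 0.79 for Cd200r1. Of the 10 genes, 3 to 8 were then below 0, with a median log2 fold change of -0.25 to 0.11, and 0 to 3 had an unadjusted p under 0.05. Without WT replicate 1 the 3 were Pdcd1 and Havcr2, higher, and Btla, lower, and without cKO replicate 2 or 3 there were 0. The fit without WT replicate 1 keeps WT replicate 2, which stood apart. It gave 273 genes higher and 601 lower over all genes at an unadjusted p under 0.05. In that fit the adjusted p of the 3 was 0.677 in edgeR. Over all genes, the fits leaving out 1 library each gave 45 to 287 genes higher and 20 to 601 lower at an unadjusted p under 0.05. They gave 0 to 1 at an adjusted p under 0.05, Xrcc6 without WT replicate 2. The log2 difference ranged from -0.34 to 0.077 for the ratio of Ctla4 to Cd28, from -0.38 to 0.049 for Tigit to Cd226, from -0.40 to 0.23 for Cd96 to Cd226, from -0.18 to 0.39 for Tigit to Cd96, from -0.77 to -0.28 for Lag3 to Cd4, from -0.41 to -0.11 for Btla to Tnfrsf14, from -0.22 to -0.09 for Cd5 to Cd6 and from -1.44 to -0.01 for Cd200 to Cd200r1. DESeq2 gave 2 genes at an adjusted p under 0.05, and 95 higher and 212 lower unadjusted, limma's voomWithQualityWeights gave 262 and 281, and filterByExpr left 39 higher. DESeq2 without WT replicate 2 gave log2 fold changes of -0.20 for Havcr2 and -0.15 for Tigit. Scaled to Cd3d, Cd3e, Cd3g and Cd4, the log2 difference was 0.066 for Pdcd1, -0.0031 for Tigit, -0.056 for Cd96, 0.11 for Cd200r1 and -0.077 for Cd5. Deviations from the group means correlated by 0.113, -0.0374 and 0.182 within the replicate numbers 1, 2 and 3. Between different numbers the correlations were -0.198 to 0.0747. With 3 libraries a group these values cannot decide whether the numbers pair the libraries. With the replicate number as a block, 39 genes were higher and 46 lower at an unadjusted p under 0.05, the median of the 10 was 0.093, and the log2 fold change was 0.22 for Pdcd1 and 0.24 for Cd200r1. The cause of these differences was not tested.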

Other observations

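The 12 endothelial and stromal markers, 11 of them measured, summed to 62.1 to 83.3 CPM in the WT group and 72.1 to 98.2 CPM in the cKO group, nearly all from Pecam1, which T cells also express. The log2 fold change was above 0 in all 11, against 54.5% of all genes. Without WT replicate 2 it was above 0 in 9 of the 11, against 7438 of the 15302 genes tested. Of the 11, 9 had 0 counts in at least 1 library. Vwf, with 0, 0 and 1 counts in the WT libraries and 26, 5 and 6 counts in the cKO libraries, had an unadjusted p of 0.0133 in edgeR. Lung epithelial markers summed to 38.7 to 103 CPM in the WT group and 41.4 to 69.7 CPM in the cKO group, led by Scgb1a1 and Epcam. Mast cell and basophil markers summed to at most 0.603 CPM in any library. The 7 measured neutrophil markers of 8 summed to 9.99 to 20.5 CPM in WT and 15.0 to 18.6 CPM in cKO, mostly from Cxcr2 (7.55 to 10.4 and 4.80 to 7.84 CPM) and S100a8 (0.335 to 7.05 and 3.81 to 5.43 CPM). Of these 7, 3 were higher in cKO at an unadjusted p under 0.05 in edgeR, against 0.94% of all genes, with and without WT replicate 2, and 0 passed adjustment. They were S100a9 (2, 0 and 4 counts in the WT libraries and 24, 28 and 43 counts in the cKO libraries), Retnlg (0 counts in WT and 19, 13 and 34 counts in cKO) and Ngp (0 counts in WT and 8, 8 and 7 counts in cKO). Of the 9 measured B and plasma cell markers, Pax5 and Mzb1 were higher at an unadjusted p under 0.05 (0.0441 and 0.039 in edgeR), with at most 2 counts in any WT library and 0 in cKO replicate 1. The part of these transcripts in the values of the checkpoint genes was not tested. The 6 T cell markers summed to 2967 to 4521 CPM in the WT group and 3407 to 4457 CPM in the cKO group, led by Cd3e and Cd4. The 10 checkpoint genes summed to 5011, 3381 and 3445 CPM in the WT libraries and to 3924, 4101 and 3227 CPM in the cKO libraries, so the groups overlapped. Per kilobase, Tigit made up 45.1%, 32.2% and 38.9% of the sum of the 10 in the WT libraries and 42.6%, 44.3% and 43.0% in the cKO libraries. Ctla4 made up 19.6%, 35.0% and 29.4% in the WT libraries and 22.6%, 23.6% and 21.5% in the cKO libraries, and WT replicate 2 was the library in which Ctla4 took its largest share of the sum.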
